A study of Mus musculus with 6 samples.

Results

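The capillary bed of the lung holds endothelial cells of distinct kinds, and the genes described here are the 10 markers by which their transcripts are usually recognised. They were taken by gene symbol, as 5 aerocyte markers (Apln, Car4, Ednrb, Emp2 and Prx) and 5 general capillary markers (Aplnr, Gpihbp1, Kit, Btnl9 and Cd93). All 10 were found among the 30055 gene symbols of the count table, and 9 had enough reads to be tested. Car4 did not pass the filter on low counts.

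Expression was measured by sequencing polyA RNA from endothelial cells of mouse lung, in 6 libraries. All cells were isolated from Ch25h null C57BL6 mice, 3 weeks old and labelled female, and were kept in culture. The Ch25h deletion, which removes cholesterol 25-hydroxylase, was therefore carried by the control cells too. Vehicle cells (2 libraries) received PBS. TEV cells (2 libraries) received tumor extracellular vesicles from MC38 mouse colorectal cancer cells at 20 µg per ml for 12 h. TEV plus reserpine cells (2 libraries) were given reserpine, a blocker of vesicular monoamine transport, at 10 µM for 8 h and then the same vesicles. The submitters' design text leaves room for reserpine in every group, but the sample labels name it for the last group only and were followed. No library with reserpine alone was analysed here. Whether libraries of a group came from separate cultures or mice is not stated, so p-values measure the spread between these libraries, which may be technical.

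Aerocytes are large, thin capillary cells that face the alveolar epithelium and are known for gas exchange and leukocyte trafficking. General capillary cells are known as the progenitors that keep up and repair the capillary bed, and as the cells that regulate vasomotor tone. Apelin signalling joins both: aerocytes make the ligand Apln, and general capillary cells carry its receptor Aplnr. In culture, lung endothelial cells are known to lose part of this identity, so the markers are read here as transcripts and not as a count of either cell kind.

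Library depth ran from 22270657 to 81225627 estimated counts, and values are given as CPM, counts scaled to library size with TMM factors. The changes were tested with edgeR's quasi-likelihood test over 15035 genes, with calls made where the Benjamini-Hochberg adjusted p was under 0.05. Calls were common in all 3 comparisons. In TEV against vehicle, 49.7% of the tested genes were called, 25.1% higher and 24.6% lower. In TEV plus reserpine against TEV, 31.6% were called, 15.7% higher and 16.0% lower. In TEV plus reserpine against vehicle, 39.1% were called, 19.1% higher and 19.9% lower. With scaling by library size alone, upward calls made up 39.8% of all calls in place of 50.5% in TEV against vehicle, where the median log2 change of all genes went from 0.01 to -0.11. In TEV plus reserpine against TEV they made up 59.4% in place of 49.5%. That comparison had 4757 calls with all libraries, and refits made 2124 calls without TEV replicate 1, 2581 without TEV plus reserpine replicate 1 and 2560 without its replicate 2. TEV plus reserpine against vehicle had 5873 calls with all libraries and 3572 in a refit without vehicle replicate 1. Genes called lower there numbered 1976 without TEV plus reserpine replicate 1, against 2994 with all libraries. The comparisons share libraries, so their values are set side by side and no agreement between them is read.

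The culture label was checked against 14 markers of endothelium at large, all of which were detected. Their summed level was 4943 and 4947 CPM with vehicle, 10441 and 10318 CPM with TEV, and 10108 and 9765 CPM with TEV plus reserpine. The sum follows the abundant genes: with TEV against vehicle 9 of the 14 were called higher and 5 lower, with a median log2 change of 0.42. Over all tested genes, 25.1% were called higher and 24.6% lower in that comparison. Pecam1, Eng and Emcn were among the higher, and Cldn5, a tight junction gene, was among the lower, at 221 and 220 CPM with vehicle, 20.2 and 37.3 CPM with TEV, and 182 and 148 CPM with TEV plus reserpine. These 4 were named after their values were seen. Markers of other lung cells were present too and moved with the groups. The 8 fibroblast markers summed to 3251 and 2820 CPM with vehicle, to 50.4 and 57.8 CPM with TEV, and to 82.7 and 65.9 CPM with TEV plus reserpine. All 7 of them that could be tested were called lower with TEV than with vehicle, with a background of 24.6%. Tcf21 was low throughout, at 0.395 and 0.418 CPM with vehicle and 0 with TEV. The 8 mural cell markers summed to 1998 and 1976 CPM with vehicle, 771 and 879 CPM with TEV, and 918 and 840 CPM with TEV plus reserpine. All 8 were called lower with TEV, against the same background of 24.6%. The 8 lymphatic endothelial markers summed to 1807 and 1787 CPM with vehicle. Their sum was 1517 and 1564 CPM with TEV, and 1757 and 1719 CPM with TEV plus reserpine. With TEV against vehicle 1 was called higher and 5 lower, with backgrounds of 25.1% and 24.6%. The 5 general capillary members summed to 809 and 811 CPM with vehicle, and the part of lymphatic endothelial RNA in the members' values was not tested. The part of these shifts in the changes below was not tested. In bulk RNA, fewer cells of a kind and less RNA per cell cannot be told apart.

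**Figure D1:**
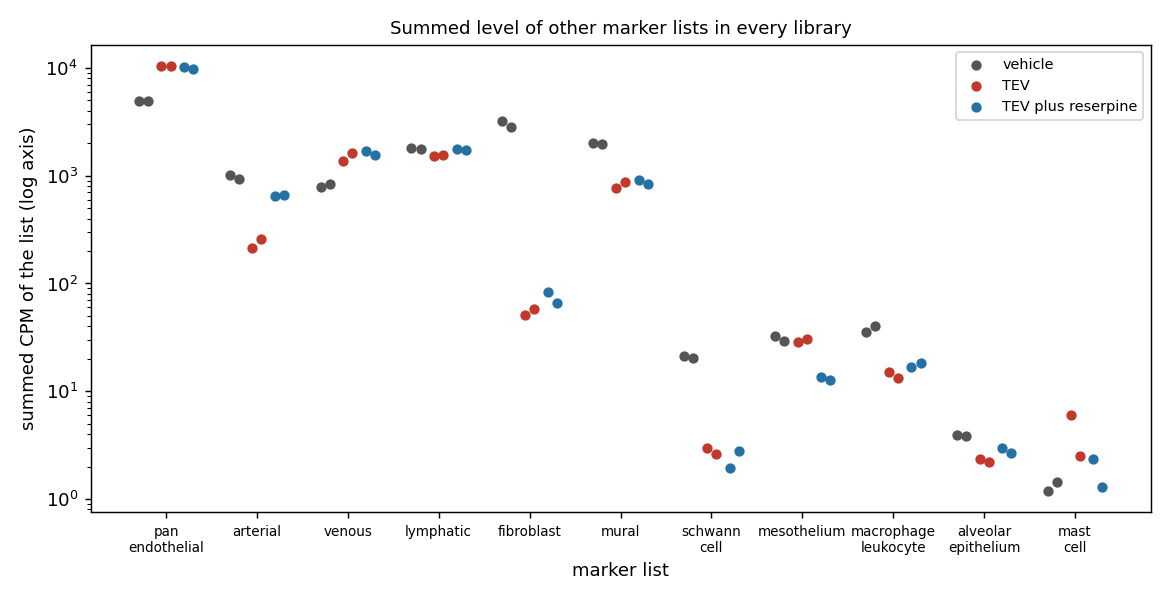
Summed CPM (log axis) of 11 marker lists in each of the 6 libraries, 1 point a library, coloured by group. The fibroblast sum stands at 3251 and 2820 CPM with vehicle and at or below 82.7 CPM in all 4 libraries that received vesicles, while the sum of 14 markers of endothelium at large is 4947 CPM or less with vehicle and 9765 CPM or more with vesicles.

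With vesicles, 4 of the 5 general capillary markers were called lower, with a background of 24.6% of all tested genes, and their receptor gene Aplnr fell by far the most of the 10. With reserpine before the vesicles, 5 of 5 were called higher than with vesicles alone, with a background of 15.7%. The aerocyte markers did not move as a group. With vesicles, Apln was called higher and Emp2 lower, and the other tested aerocyte genes, Ednrb and Prx, were not called. The median log2 change with vesicles was -3.49 for the 5 general capillary genes and 0.02 for the 4 tested aerocyte genes, against 0.01 over all tested genes. With reserpine added, the medians against TEV were 2.67 and 0.05, against 0.00 over all genes.

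**Figure D2:**
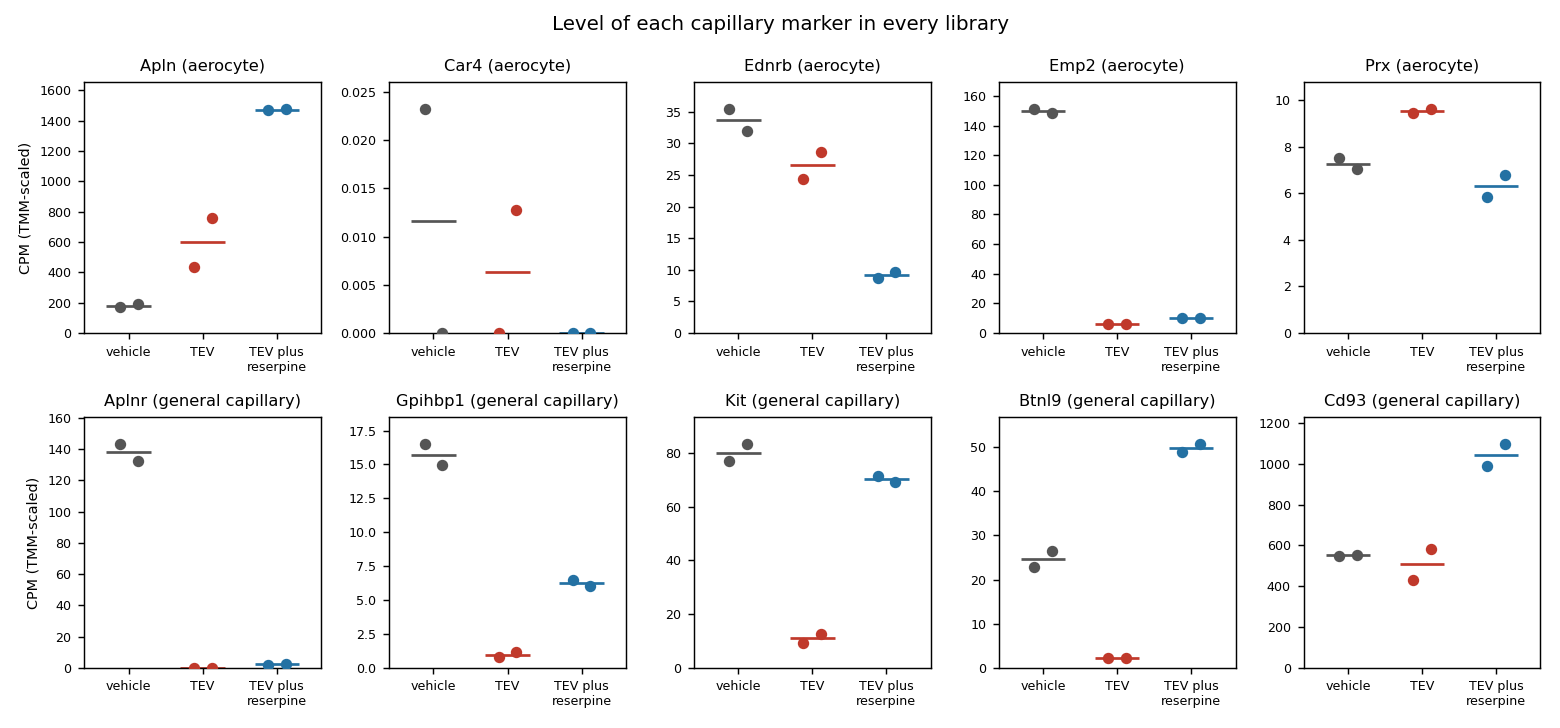
Level of each of the 10 markers in every library, in TMM-scaled CPM on axes that start at 0, with 2 points a group and a bar at their mean. Aplnr, Gpihbp1, Kit and Btnl9 are low with TEV, Apln is highest with TEV plus reserpine, and Car4 never exceeds 0.0232 CPM.

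Apln encodes apelin, a secreted peptide ligand, and was the most abundant aerocyte marker. Its level was 174 and 188 CPM with vehicle, 437 and 760 CPM with TEV, and 1468 and 1476 CPM with TEV plus reserpine. The 3 groups did not overlap, and the TEV libraries were farther apart than those of either other group. Against vehicle, Apln was 3.30-fold higher with TEV (log2 change 1.72, SE 0.23, edgeR adjusted p = 0.00123). With reserpine before the vesicles it was a further 2.46-fold above TEV (log2 change 1.30, SE 0.23, edgeR adjusted p = 0.00849). Leaving out 1 library at a time gave log2 changes from 0.95 to 1.77 there. With TEV plus reserpine it stood 8.13-fold above vehicle (log2 change 3.02, SE 0.25, edgeR adjusted p = 0.000221).

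Aplnr, the G protein-coupled receptor for apelin, went the other way with vesicles. It had 143 and 133 CPM with vehicle, 0.139 and 0.0891 CPM with TEV, and 2.01 and 2.47 CPM with TEV plus reserpine. The TEV values rest on 4.96 and 6.96 estimated counts, so this gene passed the filter on low counts through the other groups. The log2 change with TEV was -10.32 (95% interval -10.78 to -9.85, edgeR adjusted p = 2.18e-06), a 1274-fold lower level. With reserpine before the vesicles, Aplnr was 21.0-fold above its level with TEV (log2 change 4.39, SE 0.25, edgeR adjusted p = 3e-04). It remained 60.7-fold below vehicle (log2 change -5.92, SE 0.14, edgeR adjusted p = 3.55e-06), so the groups kept the order vehicle, TEV plus reserpine, TEV with no overlap.

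Set within each library, ligand and receptor counts parted by several orders of magnitude. The ratio of Apln to Aplnr estimated counts was 1.21 and 1.42 with vehicle, 3168 and 8568 with TEV, and 737 and 597 with TEV plus reserpine. Both vehicle libraries held near-equal counts of the pair. The higher Apln and the few Aplnr counts both entered the ratio with TEV. With TEV plus reserpine Apln was higher still, and the smaller ratio went with the higher Aplnr.

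**Figure D3:**
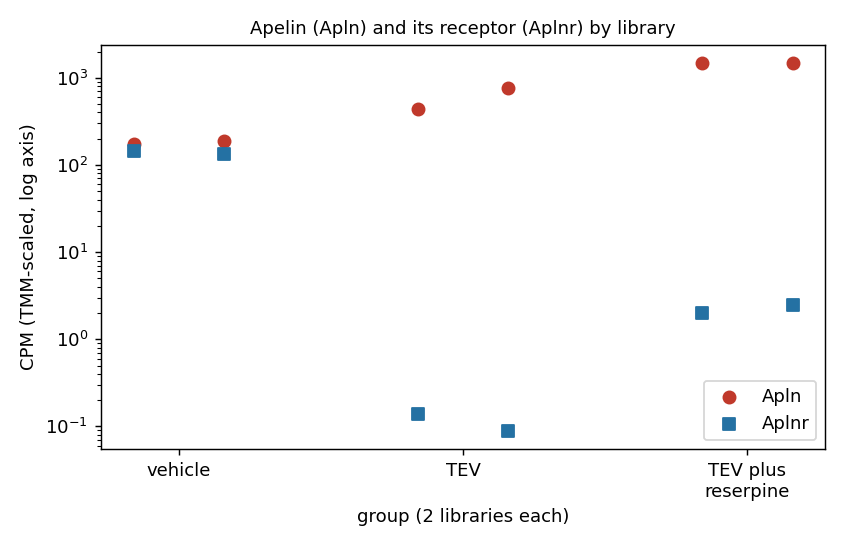
CPM (log axis) of Apln, the ligand (circles), and Aplnr, its receptor (squares), in each of the 6 libraries. They lie close together with vehicle and are farthest apart with TEV, where Aplnr is at 0.139 and 0.0891 CPM.

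Among the other aerocyte markers, Emp2 encodes a tetraspan membrane protein that flat alveolar epithelial cells also make. It had 151 and 149 CPM with vehicle, 6.11 and 6.33 CPM with TEV, and 10.1 and 9.90 CPM with TEV plus reserpine. Both vesicle groups were far below vehicle, and replicates were close in every group. Emp2 was 24.1-fold lower with TEV (log2 change -4.59, SE 0.09, edgeR adjusted p = 2.18e-06) and 15.0-fold lower with TEV plus reserpine (log2 change -3.91, SE 0.09, edgeR adjusted p = 3.55e-06). Between the vesicle groups it was 1.60-fold higher with reserpine (log2 change 0.68, SE 0.09, edgeR adjusted p = 0.00303). The summed level of alveolar epithelial markers was low and was highest with vehicle, while single markers moved both ways. The 9 genes summed to 3.90 and 3.83 CPM with vehicle, 2.36 and 2.19 CPM with TEV, and 2.95 and 2.70 CPM with TEV plus reserpine. Of the 5 tested, Aqp5 and Nkx2-1 were called lower with TEV and none higher, with a background of 24.6% called lower. Aqp5 had 0.766 and 0.487 CPM with vehicle and at most 0.0764 CPM in the vesicle libraries. Nkx2-1 had 0.511 and 0.418 CPM with vehicle and was at 0 with TEV. Under both agents, Aqp5 and Nkx2-1 were again called below vehicle and Hopx above it, with backgrounds of 19.9% and 19.1%. The log2 change of Hopx there was 1.66 (edgeR adjusted p = 0.0311). Sftpd was at 0 in all 6 libraries, and Epcam was at 0 except in TEV replicate 1, at 0.250 CPM. The part of epithelial RNA in the change of Emp2 was not tested.

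Ednrb encodes the endothelin receptor that clears and answers endothelin in the vessel wall. It had 35.4 and 31.9 CPM with vehicle, 24.3 and 28.7 CPM with TEV, and 8.75 and 9.70 CPM with TEV plus reserpine. The level with TEV lay below both vehicle libraries without passing the test (log2 change -0.34, 95% interval -0.65 to -0.04, edgeR adjusted p = 0.0614). This sat at the threshold: over 14 alternative settings the adjusted p ran from 0.0257 to 0.288, and 3 of them called it. The difference with reserpine was clear, with Ednrb 2.87-fold lower than with TEV (log2 change -1.52, SE 0.13, edgeR adjusted p = 0.000895). It was 3.64-fold lower than with vehicle (log2 change -1.86, SE 0.14, edgeR adjusted p = 0.00015). Ednrb and Aplnr, both peptide receptors of the capillary, thus had opposite signs in TEV plus reserpine against TEV.

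Prx encodes periaxin, a scaffold protein best known from myelinating Schwann cells. It was low throughout, at 7.52 and 7.03 CPM with vehicle, 9.44 and 9.61 CPM with TEV, and 5.85 and 6.80 CPM with TEV plus reserpine. The values of the groups did not overlap, and all lay within a narrow range. Vesicles alone gave no call for Prx (log2 change 0.39, 95% interval 0.01 to 0.76, edgeR adjusted p = 0.0788), and neither did TEV plus reserpine against vehicle (log2 change -0.20, 95% interval -0.58 to 0.18, edgeR adjusted p = 0.359). It was called lower with TEV plus reserpine than with TEV (log2 change -0.59, SE 0.16, edgeR adjusted p = 0.0318). That call ended when any 1 of the 6 libraries was left out, and over 14 alternatives its adjusted p ran from 0.0281 to 0.137. The 7 Schwann cell markers summed to 21.4 and 20.4 CPM with vehicle and to between 1.92 and 2.94 CPM in the vesicle libraries. Of the 6 tested, 5 were called lower with TEV, with a background of 24.6%. The part of Schwann cell RNA in the values of Prx was not tested. Of the exon bases of Prx, 5.38% (300 bases) overlap an antisense gene, Gm15541, which the count table does not hold. Whether counting used strand is not stated, so reads from the shared bases cannot be told apart.

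Car4 encodes a membrane-bound carbonic anhydrase of the capillary surface and is the marker by which aerocytes were often called Car4-high cells. Reads of it were all but missing: 1.46 and 0 estimated counts with vehicle, 0 and 1.44 with TEV, and 0 and 0 with TEV plus reserpine. Rounded and summed over a group these are counts of 1, 1 and 0. The exact Poisson 95% upper limits, which cover counting error only, were 0.0807 CPM with vehicle, 0.0466 CPM with TEV and 0.0650 CPM with TEV plus reserpine. Car4 was thus not detectable above these limits in any group, and no fold change is given.

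In the general capillary set, Gpihbp1 encodes the protein that carries lipoprotein lipase to the capillary lumen. It had 16.5 and 14.9 CPM with vehicle, 0.777 and 1.17 CPM with TEV, and 6.48 and 6.03 CPM with TEV plus reserpine. The 3 groups did not overlap, and TEV plus reserpine lay between the other groups. It was 15.7-fold lower with TEV than with vehicle (log2 change -3.97, SE 0.23, edgeR adjusted p = 4.26e-05). With TEV plus reserpine it was 6.24-fold above TEV (log2 change 2.64, SE 0.23, edgeR adjusted p = 0.000842) and 2.52-fold below vehicle (log2 change -1.33, SE 0.21, edgeR adjusted p = 0.00317).

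Kit encodes the receptor tyrosine kinase for stem cell factor. Its level was 76.8 and 83.3 CPM with vehicle, 9.36 and 12.6 CPM with TEV, and 71.3 and 69.2 CPM with TEV plus reserpine. The TEV libraries stood far below the others, and the vehicle libraries were just above those with reserpine. Kit was 7.24-fold lower with TEV (log2 change -2.86, SE 0.15, edgeR adjusted p = 2.7e-05) and 6.35-fold higher with TEV plus reserpine than with TEV (log2 change 2.67, SE 0.15, edgeR adjusted p = 3e-04). Against vehicle, TEV plus reserpine gave no call (log2 change -0.19, 95% interval -0.52 to 0.14, edgeR adjusted p = 0.32), and the interval allows a lower level by up to 0.52 on the log2 scale. Kit also marks mast cells. The 8 mast cell markers summed to 1.18 and 1.43 CPM with vehicle, 6.08 and 2.53 CPM with TEV, and to less than the lower of these with TEV plus reserpine. Tpsb2, Tpsab1 and Fcer1a were at 0 in all 6 libraries. Both that could be tested, Cpa3 and Hdc, were called higher with TEV than with vehicle, with a background of 25.1%. Of those not tested, Mcpt4 and Ms4a2 had lower means with TEV than with vehicle and Cma1 a higher one, all at or below 0.279 CPM. The part of mast cell RNA in the values of Kit was not tested.

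Btnl9, a butyrophilin-like membrane protein gene, had the largest fitted change between the vesicle groups, with Aplnr close behind. It had 22.9 and 26.4 CPM with vehicle, 2.25 and 2.15 CPM with TEV, and 49.0 and 50.8 CPM with TEV plus reserpine. Both libraries with reserpine lay above both vehicle libraries. Btnl9 was 11.2-fold lower with TEV than with vehicle (log2 change -3.49, SE 0.13, edgeR adjusted p = 8.59e-06) and 22.7-fold higher with TEV plus reserpine than with TEV (log2 change 4.51, SE 0.13, edgeR adjusted p = 3.25e-05). Against vehicle it was 2.03-fold higher with TEV plus reserpine (log2 change 1.02, SE 0.11, edgeR adjusted p = 0.000738).

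Cd93 encodes a C-type lectin-like glycoprotein of endothelial adhesion and was the most abundant general capillary marker. It had 549 and 554 CPM with vehicle, 428 and 584 CPM with TEV, and 991 and 1097 CPM with TEV plus reserpine. Vehicle values fell between the TEV values, so these groups overlapped. The change of Cd93 with TEV did not pass the test (log2 change -0.12, 95% interval -0.47 to 0.22, edgeR adjusted p = 0.504). The sign depended on the TEV library kept: the log2 change was 0.10 without TEV replicate 1 (edgeR adjusted p = 0.43) and -0.37 without TEV replicate 2 (adjusted p = 0.0265), within a range of adjusted p from 0.0265 to 0.652 over 14 alternatives. With TEV plus reserpine it was 2.06-fold above TEV (log2 change 1.04, SE 0.14, edgeR adjusted p = 0.0036) and 1.89-fold above vehicle (log2 change 0.92, SE 0.14, edgeR adjusted p = 0.00331).

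**Figure D4:**
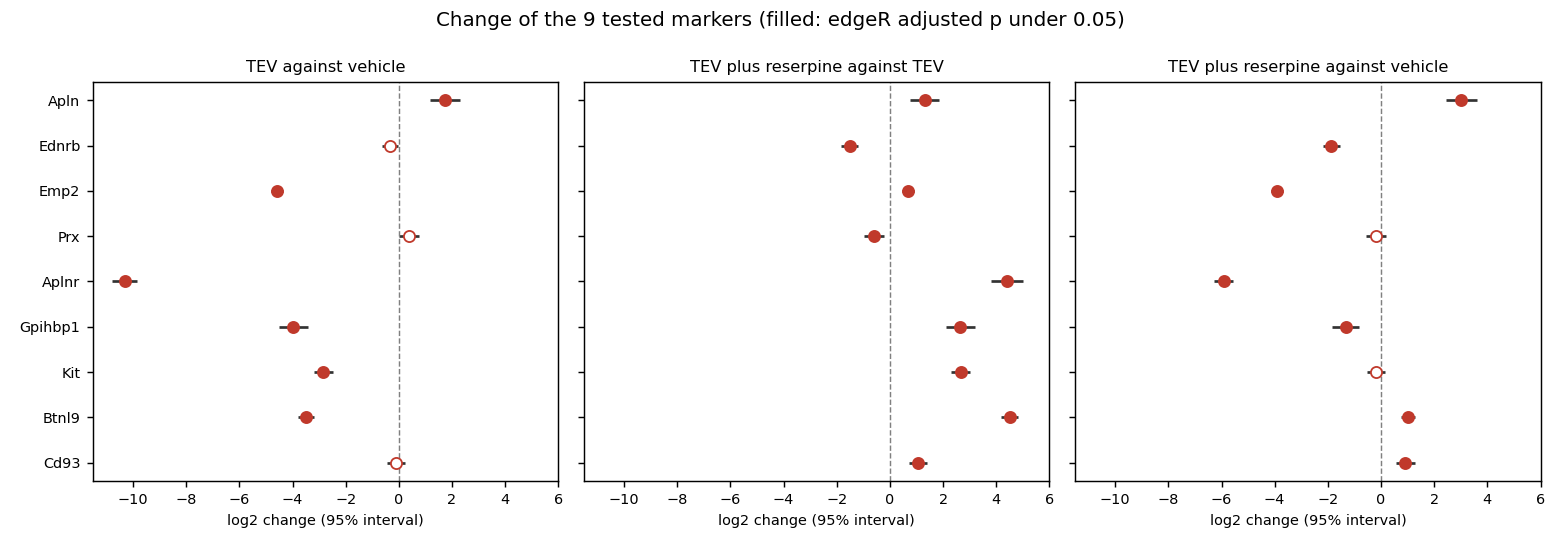
Log2 change of the 9 tested markers in the 3 comparisons, with 95% intervals from the edgeR fit, filled where the adjusted p was under 0.05. Aplnr stands farthest to the left in TEV against vehicle (-10.32), and the 5 general capillary genes lie to the right of 0 in TEV plus reserpine against TEV.

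Against vehicle, cells with TEV plus reserpine had 1 of the 4 tested aerocyte genes higher (Apln) and 2 lower (Ednrb and Emp2). Of the 5 general capillary genes, 2 were higher (Btnl9 and Cd93) and 2 lower (Aplnr and Gpihbp1). The background was 19.1% called higher and 19.9% lower over all tested genes. The medians were -1.03 for the 4 tested aerocyte genes and -0.19 for the 5 general capillary genes, against -0.02 over all genes.

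Levels of different genes were compared as CPM per kilobase of exon, using the exon length of each gene in GENCODE; the lengths of the transcripts expressed in these cells are not known. With vehicle the level per kilobase ran from Cd93 at 82.6 and Apln at 57.5 through Aplnr at 37.3, Emp2 at 17.3, Kit at 8.98, Ednrb at 7.89, Gpihbp1 at 6.16 and Btnl9 at 4.07 to Prx at 1.30. No neighbours in that order overlapped between libraries. With TEV, Apln at 190 CPM per kilobase led Cd93 at 75.8, and Gpihbp1 at 0.381 and Btnl9 at 0.363 overlapped. With TEV plus reserpine, Apln at 467 CPM per kilobase again led Cd93 at 156, Btnl9 at 8.24 stood just above Kit at 7.89, and Emp2 at 1.16 overlapped Prx at 1.13. Aplnr thus went from the third place with vehicle to the last of the 9 tested genes in both vesicle groups, at 0.0308 and 0.605 CPM per kilobase.

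The makeup of each set differed between groups too. Apln was 47.3% and 50.1% of the summed CPM of the aerocyte set with vehicle, 91.6% and 94.5% with TEV, and 98.3% and 98.2% with TEV plus reserpine. A sum over the aerocyte set in the vesicle groups is therefore nearly Apln alone. Emp2 went from 41.1% and 39.6% with vehicle to 0.676% and 0.659% with TEV plus reserpine. Cd93 was 67.9% and 68.3% of the general capillary sum with vehicle, 97.2% and 97.3% with TEV, and 88.5% and 89.5% with TEV plus reserpine.

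Promoter sequence is shown for the 4 members with a RefSeq window that were called both in TEV against vehicle and in TEV plus reserpine against TEV: Apln, higher in both, and Emp2, Kit and Btnl9, lower in the former and higher in the latter. Each run gives the 250 bases before the start of the gene on its own strand, from RefSeq on build GRCm38.p6. Capitals mark matches on either strand to any of 6 short motifs: the core of ETS factors as AGGAAG or in its other common form as CGGAAG, the element of Gata-family factors as AGATAA, the AP-1 element as TGANTCA, the core of the hypoxia response element as ACGTG, and the KLF element as CCACCC.
Apln: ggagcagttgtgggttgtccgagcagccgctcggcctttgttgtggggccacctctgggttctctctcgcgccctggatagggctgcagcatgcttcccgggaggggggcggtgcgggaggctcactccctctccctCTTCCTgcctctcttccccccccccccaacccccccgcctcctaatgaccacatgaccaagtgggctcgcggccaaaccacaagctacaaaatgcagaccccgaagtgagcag
Emp2: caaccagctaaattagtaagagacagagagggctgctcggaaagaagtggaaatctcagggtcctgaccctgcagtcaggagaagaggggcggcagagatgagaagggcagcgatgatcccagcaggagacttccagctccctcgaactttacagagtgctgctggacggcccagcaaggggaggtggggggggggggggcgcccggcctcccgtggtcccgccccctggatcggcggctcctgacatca
Kit: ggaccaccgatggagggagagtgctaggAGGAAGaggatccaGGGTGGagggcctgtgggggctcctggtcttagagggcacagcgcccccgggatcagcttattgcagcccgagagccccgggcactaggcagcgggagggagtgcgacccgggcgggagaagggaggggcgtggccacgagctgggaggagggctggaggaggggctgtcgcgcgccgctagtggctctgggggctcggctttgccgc
Btnl9: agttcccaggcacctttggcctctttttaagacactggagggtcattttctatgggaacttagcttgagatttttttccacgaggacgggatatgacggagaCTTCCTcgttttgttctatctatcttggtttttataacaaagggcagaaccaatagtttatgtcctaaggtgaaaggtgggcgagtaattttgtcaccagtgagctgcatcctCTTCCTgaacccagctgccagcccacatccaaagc
The windows are chrX:48034854-48035103 (minus strand) for Apln, chr16:10313969-10314218 (minus strand) for Emp2, chr5:75574737-75574986 (plus strand) for Kit and chr11:49187090-49187339 (minus strand) for Btnl9. Apln holds 1 match to AGGAAG (as CTTCCT), Kit 1 match to AGGAAG and 1 to CCACCC (as GGGTGG), Btnl9 2 matches to AGGAAG, and Emp2 none, with no match overlapping another. Over 27025 promoter windows of the same length, 29.2% hold AGGAAG, 13.8% CGGAAG, 10.3% AGATAA, 6.87% TGANTCA, 16.6% ACGTG and 27.7% CCACCC. Of the 10 members, 7 had a window in the RefSeq table. Among these, Kit had the highest GC content at 70.8% (17 CpG) and Btnl9 the lowest at 45.6% (5 CpG), with Apln at 65.2% and Emp2 at 62.8%, against a median of 52% and 6 CpG over all windows. Matches are descriptions of these letters only.

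Further genes ascribed to either cell kind were read from lists of 10 and 12, against a background of 25.1% called higher and 24.6% lower in TEV against vehicle, 15.7% and 16.0% in TEV plus reserpine against TEV, and 19.1% and 19.9% in TEV plus reserpine against vehicle. Of the aerocyte list, 9 were tested, with 3 higher and 5 lower in TEV against vehicle. In TEV plus reserpine against TEV 2 were higher and 3 lower. Of the general capillary list, 11 were tested, with 4 higher and 6 lower in TEV against vehicle, and 3 higher and 2 lower with TEV plus reserpine against TEV. The medians with TEV were -0.82 and -0.31, and with reserpine over TEV 0.27 and 0.11. Both lists moved in both directions, and the difference from the member sets was not tested. Against vehicle, TEV plus reserpine gave 3 higher and 5 lower in the aerocyte list and 4 higher and 5 lower in the general capillary list, with medians of -0.38 and 0.08.

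The 6 most abundant genes of each list show how mixed they were. Among aerocyte genes, Cd34, a sialomucin of endothelium, had a log2 change of 3.35 with TEV (edgeR adjusted p = 3.75e-06) and -1.54 with TEV plus reserpine against TEV (0.00034). Kdr, the main VEGF receptor, went the other way. It had 343 and 306 CPM with vehicle, 65.3 and 105 CPM with TEV, and 463 and 495 CPM with TEV plus reserpine, with log2 changes of -1.92 (edgeR adjusted p = 0.000494) and 2.48 (0.000842). The integrin gene Itga3 had log2 changes of 1.96 and -0.75, Igfbp7 of 0.68 and -1.06, and Nrp1 of -0.82 in the first comparison, all called by edgeR. Nrp1 in the other comparison (0.29) and the sulfotransferase gene Chst1 in both (-0.38 and -0.26) were not called. Among general capillary genes, Plvap, which forms the diaphragms of fenestrae and caveolae, had log2 changes of 1.72 and -0.67, and the phosphatase gene Ptprb of 1.97 and -1.67. The chemokine gene Cxcl12 had -2.27 and 1.72, Tek, the angiopoietin receptor gene, -0.31 and 1.00, and Hmcn1 0.56 and 0.78, all called by edgeR. Edn1, also among these 6, had 3.08 and 0.12, with only the former called. Edn1, Lpl, Kdr and Igfbp7 are counted again in the list of partners below.

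Ligands, enzymes and other partners of the members were read from a list of 19, of which 16 were tested. In TEV against vehicle 3 were higher and 10 lower, with TEV plus reserpine against TEV 6 were higher and 2 lower, and against vehicle 4 were higher and 7 lower. The background of higher and lower calls was 25.1% and 24.6%, 15.7% and 16.0%, and 19.1% and 19.9% in these comparisons. The medians were -0.92, 0.22 and -0.03. Edn1, the ligand of Ednrb, had 26.6 and 27.6 CPM with vehicle, 193 and 265 CPM with TEV, and 247 and 251 CPM with TEV plus reserpine. It rose with TEV (log2 change 3.08, edgeR adjusted p = 2.45e-05), while Ednrb was not called. With reserpine over TEV, Edn1 was not called (log2 change 0.12, edgeR adjusted p = 0.548), while Ednrb fell by 1.52. Ece1, the enzyme that makes active endothelin, rose with TEV (log2 change 0.56, edgeR adjusted p = 0.000927). Notch1, a receptor of neighbouring endothelial cells, fell with TEV (log2 change -0.61, edgeR adjusted p = 0.00785) and rose with reserpine over TEV (0.75, adjusted p = 0.00755).

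Of the partners that follow, Mmrn2 was named by its abundance, and the others were chosen after their values were seen. Kitl, the ligand of Kit, had 160 and 131 CPM with vehicle, 41.8 and 44.9 CPM with TEV, and 54.0 and 78.8 CPM with TEV plus reserpine. It fell with TEV (log2 change -1.75, edgeR adjusted p = 0.000462) and rose with reserpine over TEV (0.62, adjusted p = 0.044), to a level below vehicle (log2 change -1.13, adjusted p = 0.004). Under both agents, then, the ligand was called lower than with vehicle and the receptor was not. Lpl, the lipase that Gpihbp1 carries, was low at 6.43 and 5.05 CPM with vehicle and fell with TEV (log2 change -1.05, edgeR adjusted p = 0.0133). It was not called with reserpine over TEV (log2 change 0.11, edgeR adjusted p = 0.77). Mmrn2, a matrix partner of Cd93, was not called with TEV (log2 change 0.11, edgeR adjusted p = 0.389) and rose with reserpine over TEV (0.70, adjusted p = 0.00345), where Cd93 rose by 1.04. Vegfa, the ligand of Kdr, had 151 and 161 CPM with vehicle, 16.2 and 13.4 CPM with TEV, and 8.80 and 7.55 CPM with TEV plus reserpine. It fell with TEV (log2 change -3.41, edgeR adjusted p = 9.82e-06) and again with reserpine over TEV (-0.86, adjusted p = 0.00569), where Kdr rose. Dll4, a ligand of Notch1, had 90.0 and 85.3 CPM with vehicle, 12.3 and 16.3 CPM with TEV, and 85.9 and 74.7 CPM with TEV plus reserpine, and so was low with TEV only.

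For each tested member, the gene with the most similar profile was found among 10430 genes, as the smallest root mean square difference of log2 CPM over the 6 libraries after centring each gene on its own mean. The closest pair was Cd93 and Cyyr1, at 0.03. Prx lay nearest to Pdp2 (0.04), Emp2 to Vgll3 (0.13), Gpihbp1 to Spry1 (0.13), Kit to Tspan18 (0.13), Ednrb to Sema3a (0.17), Apln to Nusap1 (0.20) and Btnl9 to Kcne3 (0.31). Aplnr lay farthest from its nearest gene, Fmo2, at 0.76, with few Aplnr counts in the TEV libraries. Fmo2 had the same order of groups, and the Pearson correlation of the pair over the 6 libraries was 0.99. Tspan18, a tetraspanin gene, had 130 and 126 CPM with vehicle, 11.8 and 18.7 CPM with TEV, and 114 and 107 CPM with TEV plus reserpine, and so followed Kit in being low with TEV only. None of the 9 nearest genes was itself a member.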

How the data were processed

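PolyA RNA of 6 mouse lung endothelial libraries was sequenced as single-end reads, per the labels' protocols. Per the submitters' processing notes, the authors used kallisto 0.45.0 and R 4.0.0 with edgeR and limma. The deposited tables hold estimated counts per gene symbol. The notes name build GRCh38 although the symbols are mouse, so gene coordinates are given only for RefSeq promoter windows, on GRCm38.p6. The filtered table (13098 genes) repeats the raw table's values and was not used for tests.

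Estimated counts were rounded, filtered with filterByExpr to 15035 of 30055 symbols and TMM-scaled (factors 0.941 to 1.04). CPM values use these. A quasi-likelihood model of 3 groups over all 6 libraries (3 residual degrees of freedom) gave each contrast. Fits ran in edgeR 4.0.16 under R 4.3.3, and alternatives in DESeq2 1.42.0 and limma 3.58.1. SEs were the log2 change divided by the square root of F, and intervals used the moderated degrees of freedom. Means have n = 2. The fitting code was tested on simulated data for TEV against vehicle. It called 67% of 100 genes given a log2 change of 1 in either direction, and 91% of 100 given 2. It also called 13 unchanged genes. Far fewer genes were changed there than were called in these data. Exon lengths came from GENCODE vM21.

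The members and lists were chosen with earlier results of these data known. Named were all 10 members, the 6 most abundant genes of each wider list and the nearest-profile gene (mean of at least 5 CPM, 0.5 added to counts). Other genes were named after their values were seen, including those from the cell-marker lists. Alternatives covered scaling, filters, DESeq2, limma-voom, 2-group fits, a replicate block and leaving out each library.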

Additional observations from a re-analysis of the deposited data

How the results depend on the processing

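Over 14 alternatives and 27 member values, 365 of 378 values kept their direction and side of the threshold, 8 lost a call and 4 gained one. All 8 losses were of Prx in TEV plus reserpine against TEV. The 4 gains were of Ednrb (3) and Cd93 (1) in TEV against vehicle, where Cd93 also changed sign, to 0.10 without TEV replicate 1 (-0.37 without TEV replicate 2). Leaving out single libraries gave 2124 to 4315 called genes in TEV plus reserpine against TEV (1049 to 2177 higher, 1075 to 2138 lower) and 3572 to 5950 in TEV plus reserpine against vehicle (1800 to 2977 higher, 1772 to 2980 lower). A lone library left in a group is assumed to vary like the others. The replicate numbers of the sample titles, which differ from those of the deposited columns (2 and 3 in the vesicle groups), were used for pairing. Deviations of same-numbered libraries correlated at 0.00, -0.04 and -0.01, so no broad effect shared by number was seen. With 2 libraries a group this cannot tell whether the samples were paired. Pairing of the vehicle libraries by the column numbers was not examined. With a replicate block on the title numbers, 6864, 3840 and 5094 genes were called in the 3 comparisons, and of the member calls that of Prx in TEV plus reserpine against TEV ended (edgeR adjusted p = 0.0578).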

Other observations

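Of 12 arterial markers, 10 were lower with TEV than with vehicle and none higher (median log2 change -2.44), and 10 were higher with TEV plus reserpine than with TEV and none lower (median 1.41). Over all tested genes 24.6% were called lower in the former comparison and 15.7% higher in the latter. In TEV plus reserpine against vehicle 7 arterial markers were lower and 1 higher (median -0.75), with backgrounds of 19.9% and 19.1%. Cxcl12 and Dll4, described above in other lists, are also among the 12. The arterial markers' summed level was 1012 and 941 CPM with vehicle, 215 and 256 CPM with TEV, and 647 and 666 CPM with TEV plus reserpine. Gja5, a connexin gene of arterial endothelium named after its values were seen, had 2.42 and 2.40 CPM with vehicle, 0.139 and 0.153 CPM with TEV, and 1.34 and 1.35 CPM with TEV plus reserpine. Venous markers moved both ways with TEV, with 4 of 9 tested higher and 4 lower, against 25.1% and 24.6% of all tested genes. Neither the difference between these lists nor the part of fibroblast and mural cell RNA in them was tested.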
